A study of Mus musculus with 6 samples.

Results

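The cytosolic ribosomal protein genes were followed in primary cortical cell cultures of fetal mice treated with vehicle or with 10HDA. They were taken as the protein-coding genes whose symbol begins with Rpl or Rps and a number, together with Rplp0, Rplp1, Rplp2 and Rpsa. Genes of the Rps6k kinases and rows with a pseudogene symbol (-ps) were left out. The rule used no measured value, and it gave 86 of the 43346 genes in the count table. Of these, 33 belong to the small subunit and 52 to the large subunit, and the remaining gene, Rps19bp1, encodes a binding partner of Rps19 that is no ribosomal protein. A core set of 77 genes was told apart from 9 paralogs and other genes, among them Rps27l, Rps27rt, Rpl22l1 and Rpl36al.

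The cells came from fetuses at gestational day 15.5 that were labelled as carrying Sry, and RNA was sequenced from 3 cultures, numbered 1, 3 and 4. Each culture gave 1 library after treatment with vehicle (DMSO, spelled DSMO in the labels) and 1 after treatment with 10HDA, an unsaturated lipid found in royal jelly, at 1 mM, so the culture pairs the libraries. The labels give the strain as Cyp19-EGFP, a transgenic line in which EGFP is placed under control of the aromatase gene, for both treatments alike, whereas the study's methods section names C57BL/6 embryos for it. How many embryos were pooled in a culture is not given in the sources used here.

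A ribosome is built from ribosomal RNA and a fixed set of ribosomal proteins, which are made in nearly equal numbers and assembled on the RNA in the nucleolus. The small subunit binds the mRNA and reads its codons, and the large subunit joins the amino acids. In mammals most ribosomal protein mRNAs begin with a cytosine followed by a run of pyrimidines, the 5′ terminal oligopyrimidine (TOP) motif, through which the kinase mTORC1 and the protein LARP1 control their translation. The same mRNAs have been copied back into the genome many times, so that the mouse genome holds a great number of ribosomal protein pseudogenes.

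The TOP motif was looked for at the RefSeq start of each gene (build GRCm38.p6), as a C at the first base followed by at least 4 further C or T. Of the 66 genes with a start sequence in the table used, 14 (21.2%) had such a run at the first base, against 3.01% of 27025 genes of the mouse. Allowing the run to begin within 5 bases of the start gave 45.5% against 21.2%. Only the strand of the gene was searched, and the annotated start need not be the base at which these cells begin the transcript. Windows of 15 bases before and 15 after the start are shown for 6 genes, with the run in capitals, because the first 4 passed the comparison with culture as a block and the last 2 had values below 0.
Rplp2 (chr7:141447636-141447665, plus strand): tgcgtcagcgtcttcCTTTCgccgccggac
Rps18 (chr17:33955651-33955680, minus strand): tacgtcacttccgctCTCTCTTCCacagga
Rps27 (chr3:90213634-90213663, minus strand): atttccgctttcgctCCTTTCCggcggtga
Rps27rt (chr9:114982725-114982754, minus strand): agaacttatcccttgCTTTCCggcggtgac
Rpl28 (chr7:4792950-4792979, plus strand): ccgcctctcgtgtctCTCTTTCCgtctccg
Rpl35 (chr2:39005117-39005146, minus strand): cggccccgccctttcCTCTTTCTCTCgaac
Of the 17 genes past that comparison, 9 had a start sequence, and 4 of these (44.4%) had the run at the first base. Of all 51 tested genes with a start sequence 12 (23.5%) had it. Allowing the run to begin within 5 bases of the start gave 66.7% and 47.1%. The 4 include Rps27 and Rps27rt, which share their coding sequence. Whether the motif goes with the change was not tested.

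How far the reads of one gene can be told from those of another was read from the GENCODE M21 transcripts (GRCm38). The reads were 50 bases long. For a median of 64.2% of the 50-base stretches of a ribosomal protein gene, the stretch occurred in the transcripts of no other gene. The share ran from 4.91% for Rpl35 to 100% for 4 genes. The coding sequence of Rps27, 255 bases with the stop codon, is shown because Rps27rt, on another chromosome, had 0 differences from it, so that reads of the coding part cannot be told apart between them. Rps27l, a paralog that is known as a p53 target, differed at 61 bases (76.1% identical), given in capitals.
Rps27: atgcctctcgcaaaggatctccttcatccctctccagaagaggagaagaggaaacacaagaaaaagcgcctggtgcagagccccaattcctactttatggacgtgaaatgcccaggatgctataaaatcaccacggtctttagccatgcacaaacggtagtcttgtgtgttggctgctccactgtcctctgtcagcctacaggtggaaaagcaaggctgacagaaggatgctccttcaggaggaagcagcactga
Rps27l: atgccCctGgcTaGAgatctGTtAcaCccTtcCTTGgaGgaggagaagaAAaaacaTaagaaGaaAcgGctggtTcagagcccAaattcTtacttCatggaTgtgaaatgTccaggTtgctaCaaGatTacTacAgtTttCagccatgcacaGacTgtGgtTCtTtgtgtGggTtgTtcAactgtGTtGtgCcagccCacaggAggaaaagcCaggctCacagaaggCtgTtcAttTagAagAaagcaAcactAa
Rps6, the small subunit protein phosphorylated by S6 kinase, shares much of its sequence with pseudogenes. The following stretch, coding bases 471 to 520 of its 750, occurred in 11 pseudogene rows of the table.
Rps6: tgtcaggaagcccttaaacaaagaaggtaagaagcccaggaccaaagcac

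The libraries held 9144736 to 13367194 counts on genes. Each 3 counts, the level below which a value was read as not detectable, stood for 0.224 to 0.328 CPM (counts scaled to the library total), and this covers counting error only. In both libraries of culture 1 4 genes of the Y chromosome (Uty, Kdm5d, Eif2s3y and Ddx3y) summed to 9.07 to 9.30 CPM after TMM scaling, against 97.8 to 136 CPM in the other libraries, which goes against the male label of that culture. Results are therefore also given within each culture and without culture 1.

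Ribosomal protein genes took a larger share of the counts with 10HDA than with vehicle in each culture. The share was 0.563%, 0.480% and 0.422% in the vehicle libraries of cultures 1, 3 and 4, and 0.614%, 0.636% and 0.498% in the 10HDA libraries. The vehicle mean was 0.488% ± 0.0710 and the 10HDA mean 0.583% ± 0.0743 (SD over 3 libraries), a difference of 0.0944 percentage points. The groups overlapped, since vehicle culture 1 lay above 10HDA culture 4, whereas within cultures the 10HDA library was the higher one in 3 of 3. No p is given for a sum over genes. In a bulk culture, fewer cells of a type and less RNA per cell cannot be told apart, and this holds for every level below.

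**Figure D1:**
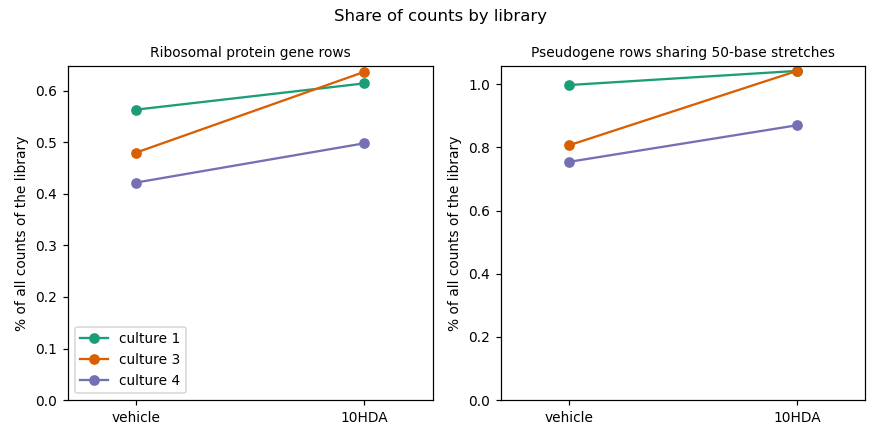
Share of all counts of a library (in percent, y axis) on the 86 ribosomal protein genes (left) and on pseudogene rows that share 50-base stretches with them (right), for vehicle and 10HDA (x axis). Points are single libraries and lines join the libraries of a culture; in both panels the line rises in cultures 1, 3 and 4.

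More counts lay on pseudogenes of these proteins than on the genes. There were 652 pseudogene rows sharing at least 10 stretches of 50 bases with a ribosomal protein gene, each assigned to the gene with which it shared the most, and 611 of them had a count. They took 0.997%, 0.807% and 0.754% of the counts with vehicle in cultures 1, 3 and 4, and 1.04%, 1.04% and 0.870% with 10HDA. Per count on a gene there were 1.64 to 1.79 counts on its pseudogene rows over the 6 libraries. For 52 of the 86 genes the pseudogene rows held more counts than the gene itself. How the counting treated reads that match several places is not given in the sources used here, and the part of this in the low levels of single genes was not tested.

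Rps6 had a mean of 2.41 CPM on the gene over the 6 libraries and 296 CPM on its 11 pseudogene rows. Rps13, a small subunit protein, had 1.15 CPM against 119 CPM on 5 rows, and Rpl19 of the large subunit had 1.44 CPM against 209 CPM on 7 rows. For such genes the gene row holds a small part of the counts on the gene and its assigned pseudogene rows. All counts of a pseudogene row were taken, also those outside the shared stretches. At the other end, Rpl8, a large subunit protein near the peptidyl transferase centre, had 243 CPM against 13.2 CPM on 1 row, and Rpl4 had 462 CPM against 109 CPM on 1 row. Per kilobase of the gene length given with the counts, the highest levels were those of Rpl4 at 325 CPM, Rpl8 at 282, the stalk protein Rplp0 at 223, Rplp1 at 196 and Rps26 at 187 CPM per kilobase. These lengths differ from the exon bases of GENCODE M21 (447 against 1544 bases for Rps26), so the ranking holds for the given lengths only. The rank correlation over the 86 genes between the share of unique stretches and the level per kilobase was 0.12.

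**Figure D2:**
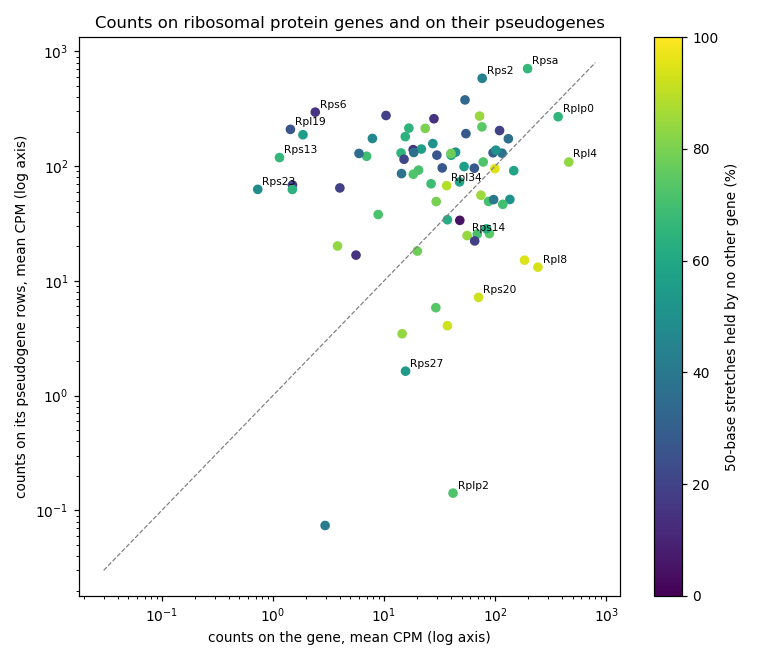
Mean CPM over 6 libraries on a ribosomal protein gene (x axis, log) against the mean CPM on its pseudogene rows (y axis, log), for the 77 genes with both values above 0; colour is the percent of 50-base stretches held by no other gene and the dashed line marks equal values. Rps6, Rpl19, Rps13 and Rps23 lie far above the line, and Rpl8, Rpl22, Rps20 and Rplp2 far below it.

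The question was whether 10HDA changed the level of these mRNAs. Of the 86 genes, 68 had at least 10 CPM in at least 3 libraries and were tested among 10520 genes, and 65 of the 68 reached 10 CPM in all 6 libraries. The other 3 are Rps27, Rpl13 and Rpl29. Tested genes ran from 10.6 to 471 CPM, with a median of 51.5. The fitted log2 fold change, 10HDA against vehicle, was above 0 for 60 of the 68 (88.2%), against 47.9% of all tested genes, and its median was 0.23 against -0.01 over all tested genes. It ran from -0.35 for Rps26 to 0.72 for Rps27, and 32 genes exceeded 0.25. The standard error of a single gene was 0.149 in the median, with a range of 0.0931 to 0.35.

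Without a culture term, which the study's methods do not mention, 0 of the 68 genes passed an adjusted p of 0.1 (edgeR's quasi-likelihood test, Benjamini-Hochberg over all tested genes), where 0.627% of all tested genes passed in either direction. The lowest adjusted p was 0.272. At an unadjusted p under 0.05 there were 12 genes (17.6%), all of them higher with 10HDA, against 4.4% of all tested genes in that direction. DESeq2 called 2 of the genes at an adjusted p of 0.1, Rpl34 among them, where 0.551% of all genes were called higher. At that threshold limma-voom called 0, where 0.627% of all genes were called in either direction. At the unadjusted level they gave 17 and 12 of the genes. The share of all genes at the unadjusted level was not counted for these 2 methods. With culture as a block, 17 of the 68 genes were called higher and 0 lower by edgeR, against 3.91% of all tested genes called higher. The block used the pairing in the labels, and the median standard error of the genes fell to 0.109 with it.

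The 17 genes included Rps14, Rps16, Rps18, Rps19, Rps20, Rps27, Rps27a and Rps27rt of the small subunit and Rpl7, Rpl8, Rpl18, Rpl22, Rpl34 and Rplp2 of the large subunit. That is 11 of 26 tested genes of the small subunit (42.3%) and 6 of 41 of the large subunit (14.6%), with median log2 fold changes of 0.30 and 0.20. The difference between the subunits was not tested. All 10HDA libraries lay above all vehicle libraries for 6 of the 68 genes (8.82%), against 5.96% of all tested genes, a share near the background. The gene was higher with 10HDA in 3 of 3 cultures for 35 of the 68 (51.5%), against 18.6% of all tested genes. It was lower in 3 of 3 for 3 genes, Rps24, Rpl35 and Rpl7a, where 2204 of all 10520 tested genes were.

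**Figure D3:**
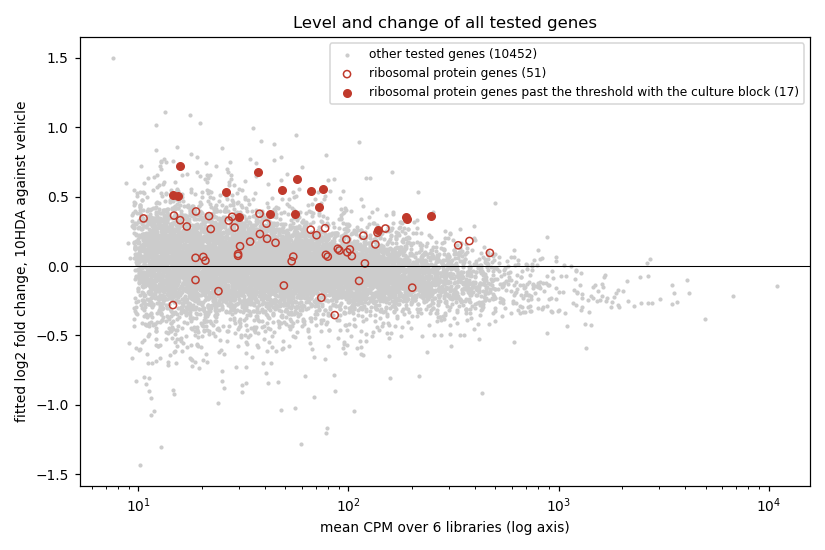
Fitted log2 fold change, 10HDA against vehicle (y axis), against the mean CPM over 6 libraries (x axis, log) for all 10520 tested genes. Of the 68 ribosomal protein genes in red, 60 lie above 0 and the 17 filled ones passed an adjusted p of 0.1 in edgeR with culture as a block.

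Among small subunit genes, Rps14, a protein of the platform of the subunit whose loss of 1 copy underlies the anaemia of the 5q- syndrome, had 51.4, 49.9 and 32.8 CPM with vehicle and 73.4, 86.9 and 45.8 CPM with 10HDA. The groups overlapped because 10HDA culture 4 lay below vehicle cultures 1 and 3, yet each culture was higher with 10HDA, and the blocked log2 fold change of 0.61 had the smallest adjusted p of the genes (0.00058 from edgeR with culture as a block, against 0.388 without).

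Rps27, a zinc-binding protein of the small subunit, had the largest fitted fold change and low levels. It had 14.3, 14.0 and 7.73 CPM with vehicle and 23.0, 27.1 and 8.52 CPM with 10HDA, so that culture 4 was low in both treatments and hardly moved. Rps27rt, whose coding sequence is the one printed for Rps27, had 18.4, 28.6 and 17.0 CPM with vehicle and 38.1, 34.4 and 19.96 CPM with 10HDA, again with both culture 4 libraries at the low end. The blocked log2 fold changes were 0.66 for Rps27 (adjusted p = 0.0067 from edgeR) and 0.52 for Rps27rt (adjusted p = 0.024 from the same fit). Since the pair shares its coding bases, the 2 calls are not independent. Rps27l had 15.2, 12.2 and 11.6 CPM with vehicle and 17.5, 20.4 and 11.8 CPM with 10HDA, a log2 fold change of 0.36 with a standard error of 0.20 that passed in neither fit (adjusted p = 0.545 without and 0.181 with the block, edgeR).

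Rps19 and Rps16, neighbours in the head of the subunit, were higher with 10HDA in cultures 1 and 3 and lay near the vehicle level in culture 4. Rps19 had 63.2, 80.1 and 40.2 CPM with vehicle and 106, 120.3 and 42.5 CPM with 10HDA. Rps16 had 40.7, 44.5 and 33.6 CPM with vehicle and 69.7, 68.9 and 33.9 CPM with 10HDA. In log2 units the differences of Rps16 within cultures 1, 3 and 4 were 0.77, 0.63 and 0.01. Rps27a, a fusion of ubiquitin and a small subunit protein, had the same order, with 0.71, 0.63 and 0.01. Rps20 was more even, with 64.6, 64.1 and 56.2 CPM with vehicle against 90.8, 90.6 and 66.9 CPM with 10HDA and no overlap of the groups, and its log2 fold change was 0.43 (adjusted p = 0.30 without and 0.013 with the block, edgeR).

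Of the large subunit, Rpl34 had the largest fold change. It had 29.1, 33.1 and 23.8 CPM with vehicle and 48.2, 59.3 and 29.3 CPM with 10HDA, a log2 fold change of 0.68 with a standard error of 0.22 (adjusted p = 0.333 without and 0.00094 with the block, edgeR). The 10HDA library of culture 4 lay within the vehicle range and the other 10HDA libraries above it. Rplp2, an acidic protein of the stalk that recruits the elongation factors, differed by nearly the same amount in each culture. It had 38.9, 38.5 and 33.8 CPM with vehicle and 49.7, 51.8 and 42.8 CPM with 10HDA, with within-culture log2 differences of 0.35, 0.42 and 0.34 and no overlap of the groups (adjusted p = 0.30 without and 0.030 with the block, edgeR).

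The other stalk proteins gave smaller values. Rplp0 had 414, 351 and 294 CPM with vehicle and 426, 419 and 355 CPM with 10HDA, a log2 fold change of 0.18, and Rplp1 one of 0.10 that turned to -0.04 without the vehicle library of culture 4 and to -0.07 without the 10HDA library of culture 1. Neither passed with the block (adjusted p = 0.258 and 0.666, edgeR). Rpl8 and Rpl22 are both abundant and largely unique in sequence. Rpl8 had 239.8, 227 and 183 CPM with vehicle and 287, 308 and 238 CPM with 10HDA, and Rpl22, which also binds other RNAs, had 172, 184 and 137 CPM with vehicle and 228, 228 and 174 CPM with 10HDA. Both had a log2 fold change of 0.36 (adjusted p = 0.392 and 0.430 without the block, 0.019 for both with it, edgeR), and in each culture the 10HDA library was the higher one.

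**Figure D4:**
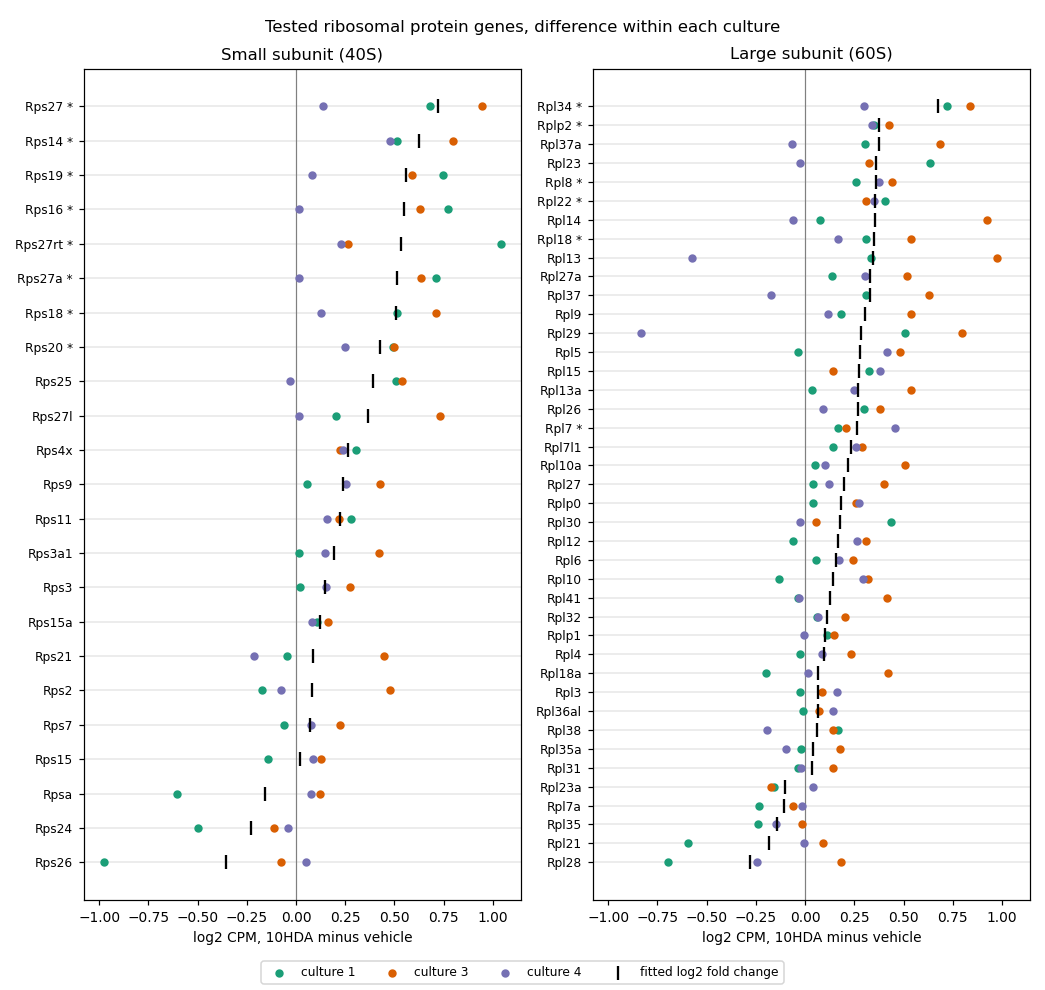
Difference in log2 CPM, 10HDA minus vehicle, within cultures 1, 3 and 4 (points) and the fitted log2 fold change (bar) for 23 small and 41 large subunit genes, ordered by the fitted value (the other tested genes are not drawn). Stars mark the 14 of these genes past an adjusted p of 0.1 in edgeR with culture as a block. For the genes with a fitted value below 0, at the foot of each panel, culture 1 lies farthest below 0, except for Rpl23a, where culture 3 does.

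The 8 genes with a fitted value below 0 were Rps26, Rpl28, Rps24, Rpl21, Rpsa, Rpl35, Rpl7a and Rpl23a, none of them past the test in either fit of all 6 libraries. In 8 of 8 the vehicle library of culture 1 was the highest of the 6, which was so for 29.4% of all tested genes with a fitted value below 0. Rps26, which sits at the mRNA exit channel, had 127.5, 60.6 and 101 CPM with vehicle and 64.7, 57.4 and 105 CPM with 10HDA, with within-culture log2 differences of -0.98, -0.08 and 0.05 and a log2 fold change of -0.35 (adjusted p = 0.658, edgeR). Rpsa, also known as the laminin receptor, had 264.9, 156 and 215 CPM with vehicle and 174, 170 and 227 CPM with 10HDA, and without the vehicle library of culture 1 its log2 fold change was 0.06 instead of -0.16. For Rpl28, Rpl21 and Rps24 the within-culture log2 differences of culture 1 were -0.69, -0.60 and -0.50, and those of cultures 3 and 4 ran from -0.24 to 0.18.

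The exons of Rpl35 and Rpl23a overlap genes on the opposite strand (Arpc5l and Wdr38, and Tlcd1) over 66.2% and 59.7% of their bases. Whether the counting used the strand is not given in the sources used here. Of the 86 genes, 19 had some overlap on the opposite strand and 28 on the same strand, so these 2 values are uncertain.

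The cultures differed in how far the genes moved. The median log2 difference over the 68 genes was 0.11 in culture 1, 0.32 in culture 3 and 0.10 in culture 4, and 45, 63 and 48 genes were above 0. The 10HDA library of culture 3 held the highest value of 35 genes (51.5%), against 18.3% of all tested genes. The 10HDA library of culture 1 held it for 15 genes (22.1%, against 10.8%), and that of culture 4 for 1 (1.47%, against 13.4%). The vehicle library of culture 1 held the highest value of 17 of the 68 genes, against 20.2% of all tested genes. The vehicle libraries of cultures 3 and 4 held it for 0 genes, against 13.8% and 23.5%. The SD of the 3 culture medians was 0.126, with the lowest median less than 1 SD from 0. Without both libraries of culture 3 the median fold change fell from 0.23 to 0.12, and 50 of the 68 genes stayed above 0. Without both libraries of culture 1 the median was 0.28 and 63 genes were above 0, with 0 calls without the block (edgeR). With the block and without culture 1, 14 genes were called higher, where 2.67% of all tested genes were. Without culture 3 the blocked fit called 15 genes higher, against 4.82% of all tested genes. It called 2 of the 68 lower, Rps26 and Rpl28, where 643 of all 10520 tested genes were. Without culture 4 it called 14 higher, against 1.26%. Without the block, leaving out the 10HDA library of culture 4 gave 16 calls, all higher, where the called share of all tested genes in that direction was 1.67%. Leaving out culture 4 entirely gave 2, against 0.19%. The lowest total of counts, 9144736, was that of the 10HDA library of culture 4, and the part of depth in these values was not tested.

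Over the 68 genes the rank correlation of the fold change was 0.06 with the length given with the counts, 0.03 with the share of unique stretches and -0.21 with the mean level. These are descriptions across genes that share the same 6 libraries. The median length of the tested genes was 1645 bases, against 4137 for all tested genes.

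Several genes have paralogs or work outside the ribosome. Rpl5 and Rpl11, which together with 5S ribosomal RNA bind the p53 regulator Mdm2, stood at 31.2, 22.7 and 24.0 CPM with vehicle and 30.4, 31.8 and 32.2 CPM with 10HDA for Rpl5, and under the filter for Rpl11 (5.78 to 11.8 CPM). The log2 fold change of Rpl5 was 0.28 (adjusted p = 0.529 without and 0.175 with the block, edgeR). Rps3, also an endonuclease of DNA repair, had 349, 317 and 281 CPM with vehicle and 354, 383 and 313 CPM with 10HDA, and its log2 fold change was 0.15. Rpl13a, part of the GAIT complex that silences inflammatory mRNAs, had a value of 0.27 and did not pass with the block (adjusted p = 0.110, edgeR).

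For the pairs of paralogs, Rpl7 had a log2 fold change of 0.26 and Rpl7l1 one of 0.23, of which only that of Rpl7 passed with the block (adjusted p = 0.090 and 0.216, edgeR). The difference between them was not tested. Rps4x, the X-linked small subunit protein, had 0.26, and Rps4l, a transcribed pseudogene outside the rule, had -0.02. Rpl36al had 0.07 and Rpl3 had 0.07. Rpl10, an X-linked protein of the large subunit joined late in assembly, had 37.1, 26.5 and 23.5 CPM with vehicle and 33.9, 33.1 and 28.9 CPM with 10HDA, a value of 0.14 (adjusted p = 0.775, edgeR). Rps19bp1 had 0.07. The paralogs of testis and muscle were at or near the limit of detection, with Rpl10l at 0 in every library, Rpl39l at 0 to 0.15 CPM and Rpl3l at 0 to 0.82 CPM.

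Of the 18 genes not tested, 15 others had a count in every library and fell under the filter of 10 CPM. They were Rps6, Rps10, Rps12, Rps13, Rps23, Rps28, Rps29, Rpl11, Rpl17, Rpl19, Rpl24, Rpl36, Rpl36a, Rpl39 and the paralog Rpl22l1. Together the 18 held 417 to 964 counts per library. Rpl22l1, the counterpart of Rpl22, had 2.93, 2.32 and 2.21 CPM with vehicle and 4.30, 4.72 and 1.46 CPM with 10HDA, higher in cultures 1 and 3 and lower in culture 4.

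Because so many counts lay on pseudogenes, the counts of each gene were summed with those of its pseudogene rows, an alternative chosen after the data had been seen. Then 82 genes reached the filter, 72 of them had a value above 0, and the median log2 fold change was 0.20. Without the block 0 genes passed, as before, and with the block 26 passed (31.7%), all of them higher, against 4.22% of the genes tested in that fit. The 26 included the 17 of the fit without summing and added Rpl9, Rpl10, Rpl13a, Rpl17, Rpl39, Rplp1, Rps13, Rps23 and Rps27l. Rpl10 is an example of a gene whose value moved, with 162, 136 and 99.8 CPM with vehicle and 194, 198 and 140 CPM with 10HDA after summing and a blocked log2 fold change of 0.37 (adjusted p = 0.019, edgeR). Rps13 had 99.3, 115 and 83.8 CPM with vehicle against 159, 171 and 92.4 CPM with 10HDA. Rps6 remained without a call, with 356, 249 and 264.8 CPM against 304, 310 and 307 CPM. Its log2 fold change was 0.03 without and 0.04 with the block.

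A further 2 genes outside the rule encode proteins of the ribosome or bound to it. Fau, a fusion of a ubiquitin-like protein and a small subunit protein, had 39.5, 32.8 and 27.4 CPM with vehicle and 52.7, 66.4 and 29.8 CPM with 10HDA, a log2 fold change of 0.59 (adjusted p = 0.450 without and 0.010 with the block, edgeR). Rack1, a scaffold on the small subunit, had a value of 0.12.

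Genes that share the pathway but are no ribosomal proteins of the cytosol were counted by fixed lists. Of 16 other genes with TOP mRNAs, such as elongation factors, 8 were above 0 and the median was 0.01. With the block 2 were higher (12.5%, against 3.91% of all tested genes), Tpt1 (0.48) and Vim (0.32). The poly(A) binding protein Pabpc1 (-0.29) was called lower, as were 534 of all 10520 tested genes. Without the block 0 passed (edgeR, with 2 at an unadjusted p under 0.05). Of 43 ribosome biogenesis genes 16 were above 0, with a median of -0.02 and 2 calls with the block (4.65%), Eif6 and Imp3, both higher. Of 16 tested genes of RNA polymerase I, which transcribes ribosomal RNA, 5 were above 0 (median -0.04), and 1, Taf1d, was called lower with the block. The 9 tested genes of ribosome quality control had a median of -0.13 and 0 calls in both fits (edgeR, 0 at an unadjusted p under 0.05 without the block).

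Over the 64 tested genes with the symbol of a translation factor, which took in regulators such as Eif4ebp1, the median was 0.0025, and 33 were above 0. With the block 4 were called higher (6.25%, against 3.91% of all tested genes) and 2 lower, as were 534 of all 10520 tested genes. Those past the threshold without the block were Eif4ebp1 (0.72, adjusted p = 0.079, edgeR), which inhibits the cap-binding protein eIF4E, and Eef1a2, the elongation factor of neurons and muscle (-0.52, adjusted p = 0.053, edgeR). Among 22 tested regulators of mTORC1 and of TOP mRNAs, 13 were above 0 and the median was 0.06. Of them Sesn2, a leucine sensor that inhibits mTORC1, had 63.0, 52.9 and 54.5 CPM with vehicle and 108.5, 82.0 and 106.5 CPM with 10HDA (0.80, adjusted p = 0.043, edgeR). Eif4ebp1 is also in that list, and with the block Ddit4, Cnbp and Rheb were called higher as well. That made 5 of the 22 (22.7%), against 3.91% of all tested genes. Larp1, the repressor of TOP mRNAs, had a value of -0.07 (adjusted p = 0.797, edgeR).

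The 71 tested mitochondrial ribosomal protein genes had a median of 0.04, with 45 above 0, and 3 (4.23%) called higher with the block, Mrps14, Mrps24 and Mrpl27. The 69 tested rows with a ribosomal protein pseudogene symbol had a median of 0.19 with 54 above 0. With the block 16 of the 69 (23.2%) were called higher and 2 lower. Of all 10520 tested genes 3.91% were called higher and 534 lower. Reads that match both a row and its gene cannot be told apart.

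**Figure D5:**
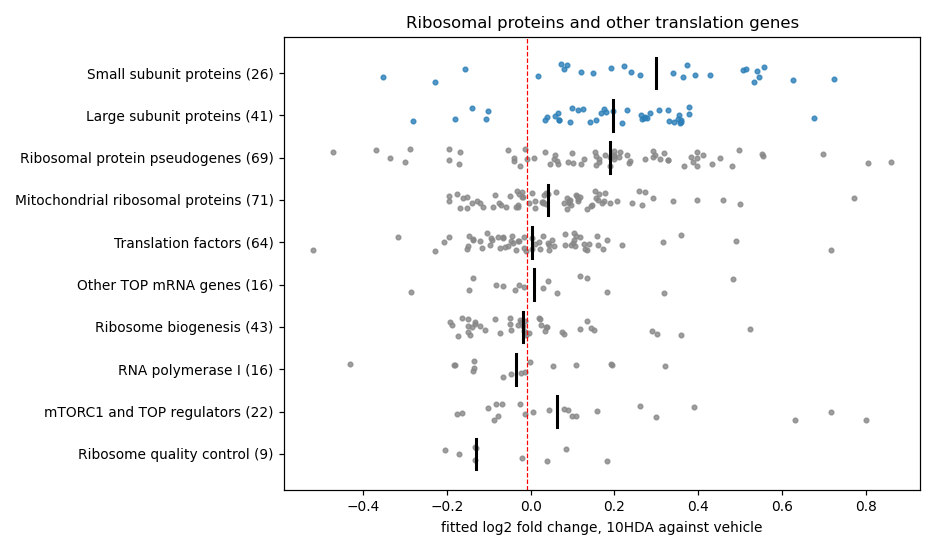
Fitted log2 fold change, 10HDA against vehicle (x axis), of each tested gene (points) in lists of translation genes, with the number tested in brackets, the list median as a black bar and the median of all tested genes as a dashed line. The medians of small (0.30) and large (0.20) subunit genes and of the pseudogene rows (0.19) lie to the right of those of the other lists, which run from -0.13 to 0.06.

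Markers of the cell types that such cultures can hold moved with the treatment as well. Of 12 neuronal markers 11 had a value below 0 (median -0.27), and their summed level was 9047 to 9647 CPM with vehicle and 7494 to 8522 CPM with 10HDA. With the block 6 of them were called lower, and without it 0 (edgeR, 6 at an unadjusted p under 0.05). Over all 10520 tested genes 534 were called lower with the block and 45 without it. Of 11 tested astrocyte markers 9 were below 0 (median -0.53) and 4 were called lower, 6 with the block, with summed levels of 1848 to 2176 against 1323 to 1660 CPM. The 6 tested oligodendrocyte lineage markers went both ways, with 4 below 0 and 2, Olig1 (0.06) and Olig2 (0.24), above it (median -0.49). In the blocked fit 3 were called lower and 0 higher, and without the block 1 was called lower. Pdgfrb and Cspg4, markers of mural cells and oligodendrocyte precursors, were both called lower in both fits. Of 4 tested intermediate progenitor markers, all above 0 (median 0.39), Btg2 and Insm1 were called higher with the block and 0 without it (edgeR, 2 at an unadjusted p under 0.05). Of 6 tested radial glia markers (median -0.09), Vim was called higher and Fabp7 lower with the block and 0 without it (edgeR, 2 at an unadjusted p under 0.05). The 6 tested markers of dividing cells (median 0.09) had 0 calls in both fits (edgeR, 0 at an unadjusted p under 0.05 without the block), and markers of microglia and red cells summed to at most 8.77 and 4.06 CPM. Their part in the values of the ribosomal protein genes was not tested.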

How the data were processed

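RNA of 6 libraries of primary cortical cultures was analysed, 3 with vehicle and 3 with 10HDA. Per the paper's methods and the submitters' processing notes, the authors mapped untrimmed single-end reads of 50 bases to mm10 with Subjunc (Subread 1.4.4) and summarised them with featureCounts over Gencode models, and the deposited values are these raw counts, not normalized. Libraries were strand-specific. No other sample column was present (0). Symbols came from GENCODE M21 (97.961% of identifiers matched).

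Genes with at least 10 CPM in 3 libraries were kept, counts were scaled by TMM and tested with edgeR 4.0.16 in R 4.3.3 (glmQLFit, glmQLFTest, Benjamini-Hochberg, threshold 0.1). The filter, scaling, adjustment and threshold follow the study's methods, which name edgeR but neither its test nor a culture term. A standard error is the size of the log2 fold change over the root of its F statistic. CPM per gene are after TMM scaling, except shares and values set beside pseudogene rows, which use library totals. Differences within cultures used log2 CPM with a prior count of 2. Labels give each culture 1 library per treatment, so culture pairs the libraries. As a check, deviations from the treatment means correlated across genes at 0.368, 0.235 and 0.616 in cultures 1, 3 and 4, against -0.449 to 0.183 between cultures. The deviations within a treatment cancel out, so low values between cultures partly follow from high values within them. The 0.183, of vehicle culture 1 and 10HDA culture 3, was near the 0.235 of culture 3. Whether cultures came from separate litters is not given, so p-values measure the spread between these samples. Simulated data with 200 genes changed by 1 on the log2 scale among 10520 gave 200 recovered with 25 false calls (block, 200 and 20). The simulated counts had no culture effect, and the change of 1 exceeded the largest one of the ribosomal protein genes (0.72). They do not show how the block works on paired cultures or how smaller changes are recovered.

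The genes named were the 5 largest and 5 smallest fold changes, the 6 smallest p, up to 12 genes by the blocked fit, and genes with a paralog or a role outside the ribosome. Members and lists were chosen with earlier results of these data known. DESeq2 1.42.0, limma-voom (limma 3.58.1), other scalings and filters, a threshold of 0.05, each library and each culture left out were the alternatives. Promoter sequences came from RefSeq (GRCm38.p6) and matched 66 of 86 genes. Results of some genes are not reported here.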

Additional observations from a re-analysis of the deposited data

How the results depend on the processing

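Without culture as a term, 0 of the 68 genes passed an adjusted p of 0.1 with the other scalings, limma-voom and a threshold of 0.05, and 0 of 82 with a filter of 1 CPM. The number was 2 by DESeq2 (0.551% of all genes called higher), 13 of 85 with no filter but 1 count (1.09%), 2 without both libraries of culture 4 (0.19%), and 0 to 16 when single libraries were left out, the 16 without the 10HDA library of culture 4 (1.67%). With the replicate block by culture it was 17 (3.91%), with the block and library size alone 35 (9.02%), with the block and a filter of 1 CPM 19 of 82 (3.92%), and with the block after summing with pseudogene rows 26 of 82 (4.22%). With the block it was 14 without culture 1 (2.67%) and 14 without culture 4 (1.26%). Without culture 3 it was 17, of which 15 were higher (4.82%) and 2 lower (643 of all 10520 tested genes). The fits joining the block with another change were added after the data had been seen. Where 68 genes were tested without the block, 50 to 63 were above 0, against 71 of 82 with a filter of 1 CPM, 72 of 85 with no filter and 72 of 82 after summing. The median log2 fold change ran from 0.12, without culture 3, to 0.35. The highest median, 0.35, came from omitting vehicle culture 1, and omitting 10HDA culture 3 gave 0.14. Library size alone raised the median of all genes by 0.076 and that of the members to 0.30. The difference in the share of counts ran from 0.0612 (without vehicle culture 4) to 0.137 points (without 10HDA culture 4) with single libraries left out, and was 0.226 with pseudogene rows. Of 280 alternative values of 35 named genes, 27 newly passed the threshold, 8 changed sign without passing it, and the others kept their sign and side. With single libraries left out, Rpl3 ran from -0.043 (without vehicle culture 4) to 0.19, Rplp1 from -0.067 (without 10HDA culture 1) to 0.28, Rps4l from -0.11 to 0.089 (without vehicle culture 1) and Rpsa from -0.32 to 0.056 (without vehicle culture 1). Rplp1 was also -0.035 without vehicle culture 4, and Rps4l was 0.020 and 0.029 without vehicle culture 4 or 10HDA culture 1 and 0.055 with library size alone. The cause of these changes was not tested. At this depth, genes under 10 CPM had too few counts to test, and the reads of near-identical copies cannot be told apart.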
